A study of Mus musculus with 10 samples.

Results

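The genes described here are 9 genes that type I interferon is known to induce: Mx1, Ifit1, Ifit3, Isg15, Irf7, Oasl2, Rsad2, Ifi44 and Usp18. They were chosen by symbol, with earlier results of these data already known. All 9 were found among the 40501 gene identifiers of the count table and passed the filter on low counts. They were measured by bulk RNA-seq in inguinal white adipose tissue (iWAT, the subcutaneous fat of the groin) of male C57/BL6J mice fed chow. The PexRAP-AKO group has 5 libraries (replicates 1, 2, 3, 5 and 6) from Cre-positive mice with PexRAP deleted in adipose tissue. The Control group has 5 libraries (replicates 2, 3, 5, 7 and 8) from Cre-negative mice, and all 10 libraries share sex, strain and diet. PexRAP, also named ADHAPR, is the product of Dhrs7b and reduces acyl or alkyl dihydroxyacetone phosphate on the peroxisomal route to ether lipids. Neither the Cre driver nor the deleted exons are named in the labels, which also do not say whether a library is 1 mouse or a pool. The labels mention 8 weeks both as the time on chow and as an age, so the age at harvest is uncertain.

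Type I interferons, the interferon alphas and interferon beta, are secreted by cells that sense viral nucleic acid or damaged DNA and bind the receptor formed by Ifnar1 and Ifnar2. The kinases Jak1 and Tyk2 then activate a transcription complex, with Stat2 and Irf9 among its parts, that binds interferon-stimulated response elements in promoters and switches on antiviral genes. The 9 genes span that programme: Irf7 is a transcription factor that amplifies interferon production, Isg15 and Usp18 form a protein modifier and the protease that removes it, and the other 6 are mostly antiviral effectors. In fat, resident macrophages, other immune cells, endothelium and adipocytes can all respond to interferon, and a library of whole tissue does not separate them.

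Promoters of 4 of the genes are shown because a motif of the element that the interferon complex reads was found in them. In RefSeq promoter windows (GRCm38.p6, 250 bases before to 50 bases after each start), 7 of the 9 genes had a sequence. Mx1 and Usp18 are named only. The motif searched was GAAANNGAAA on either strand, which reads TTTCNNTTTC on the other strand and may overlap itself. It occurred in 4 of the 7 windows, against 3.44% of all 32851 promoter windows and 3.99% of 27025 genes. Among 45 of the other antiviral genes with a window, 22 held it. So did 10 of 19 genes that interferon gamma mainly induces, 3 of 6 close relatives of the 9 and 3 of 9 antigen processing genes. For sensor genes it was 3 of 12, and for negative regulators 2 of 9. The stretches below run 5′ to 3′ on the strand of the gene, and capitals mark the motif.
Ifit1 (plus strand, chr19:34640760-34640838): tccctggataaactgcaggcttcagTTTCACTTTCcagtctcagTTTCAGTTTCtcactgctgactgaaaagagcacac
Ifit3 (plus strand, chr19:34583348-34583441): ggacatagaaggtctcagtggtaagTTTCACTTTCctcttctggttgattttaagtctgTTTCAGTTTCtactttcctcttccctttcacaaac
Rsad2 (minus strand, chr12:26456538-26456597): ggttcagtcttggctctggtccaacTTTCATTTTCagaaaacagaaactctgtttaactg
Isg15 (minus strand, chr4:156200850-156200921): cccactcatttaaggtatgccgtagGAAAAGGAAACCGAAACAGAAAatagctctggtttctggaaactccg
The motifs began 104 and 85 bases before the start of Ifit1, 156 and 122 bases before that of Ifit3 and 120 bases before that of Rsad2. Isg15 held 3 overlapping matches that began 78, 72 and 66 bases before its start. The same pair of letter runs, TTTCACTTTC followed by TTTCAGTTTC, stood in the Ifit1 and Ifit3 windows. Irf7, Oasl2 and Ifi44 had no match in the window, which says only that these letters are not in it.

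Libraries held 11274865 to 19881168 counts, and the 9 genes together took 0.00974% to 0.0272% of them. Dhrs7b was checked first. It stood at 22.8, 19.05, 18.03, 21.8 and 17.9 CPM in the PexRAP-AKO libraries, against 95.8, 61.2, 85.9, 86.0 and 83.2 CPM in the Control libraries (CPM, counts scaled to a common library size by TMM). It fell, with a log2 fold change of -2.05 and an SE of 0.12 (adjusted p = 1.54e-05, edgeR quasi-likelihood test with Benjamini-Hochberg correction). The tissue label was met by adipocyte markers (Adipoq, Plin1, Fabp4 and others), whose levels summed to 33144 to 42462 CPM in PexRAP-AKO and 34039 to 44990 CPM in Control libraries. A few libraries stood apart on immune markers. PexRAP-AKO replicate 3 was highest for macrophage, monocyte and NK cell markers, and PexRAP-AKO replicate 6 was highest for lymph node stroma, B cell and T cell markers. The values of these markers are given after the gene results.

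The interferon response genes had higher means in PexRAP-AKO than in Control iWAT, all 9 of them, but none passed the test over all genes. The median log2 fold change of the 9 was 0.36, against -0.00065 over all 14913 genes tested. The largest was that of Mx1 (1.10) and the smallest that of Usp18 (0.14). PexRAP-AKO replicate 3 had the highest level of the 10 libraries for each of the 9 genes, and without it the median was 0.07, with 6 genes positive and 3 negative. In whole tissue, more cells of a type and more RNA per cell cannot be told apart, nor can fewer cells and less RNA. Nothing in the labels says that libraries of a group were independent beyond their numbers. The p-values therefore set a group difference against the spread between these libraries only.

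With edgeR at an adjusted p under 0.05, 0 of the 9 genes were called, where 15 of all genes were (0.101%). DESeq2 and limma voom also called 0 of the 9, where they called 3.78% and 0.127% of the genes they gave an adjusted p. DESeq2 gave none for 2 of the 9, Isg15 and Ifi44. At an unadjusted p under 0.05, 1 of the 9 passed, against 15.5% of all genes tested. The PexRAP-AKO and Control libraries overlapped for all 9 genes, and 3.41% of all genes did not overlap between the groups. A count of 1 in 9 is near that background.

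**Figure D1:**
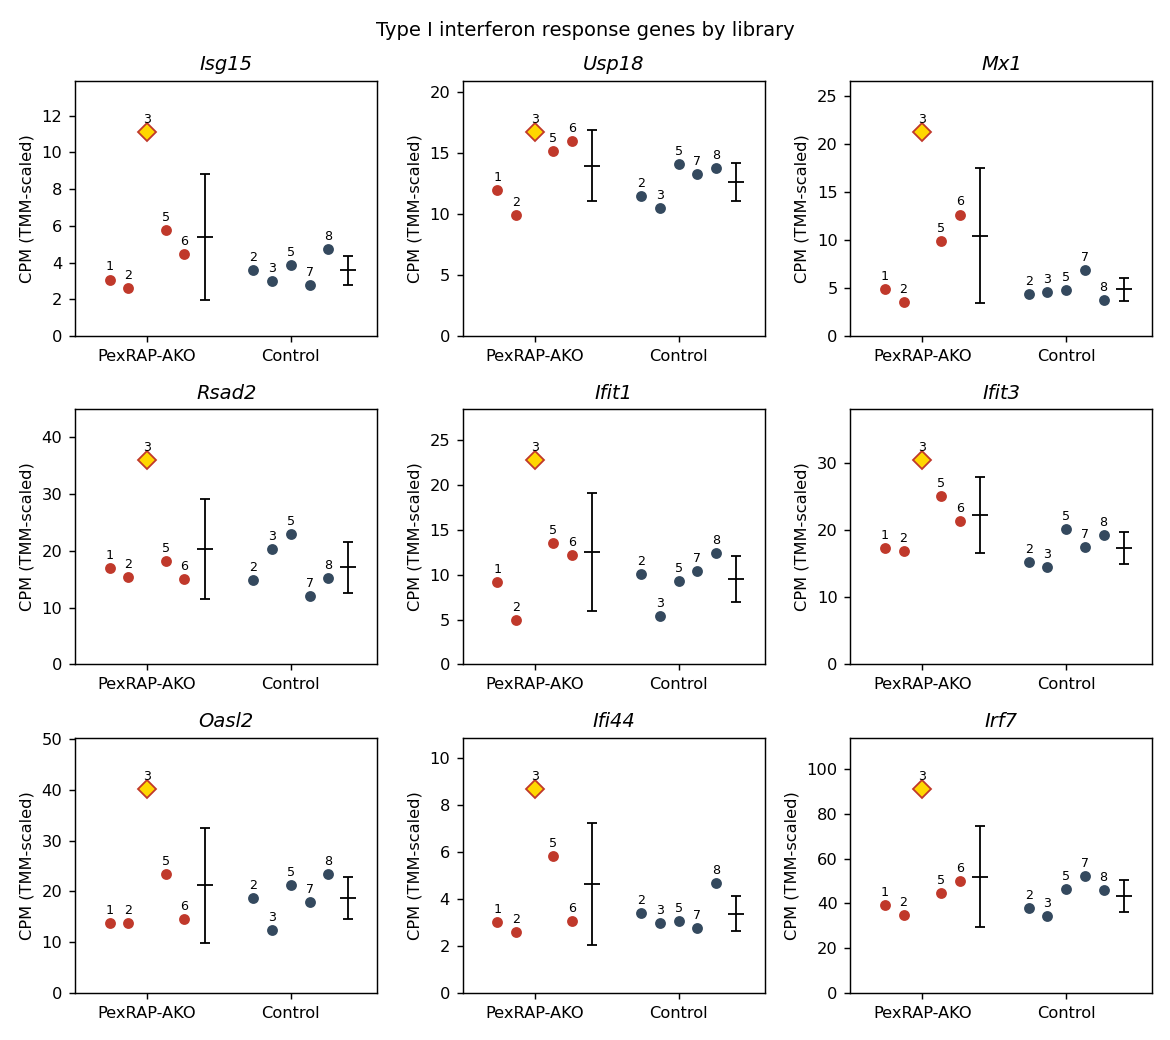
CPM (TMM-scaled, linear axes from 0) of the 9 interferon response genes in each library, PexRAP-AKO left and Control right. Numbers are replicates, the yellow diamond is PexRAP-AKO replicate 3, and bars are mean ± SD (n = 5). Replicate 3 is the highest point in all 9 panels, by 1.93-fold over the next library for Isg15 and by 1.04-fold for Usp18.

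Irf7 (chromosome 7, 141262706 to 141266481, minus strand, GRCm38, protein-coding), the transcription factor that drives interferon alpha genes in a feed-forward loop, had the highest level per length of the 9. It stood at 39.4, 34.7, 91.2, 44.8 and 50.1 CPM in PexRAP-AKO replicates 1, 2, 3, 5 and 6, against 38.0, 34.3, 46.3, 52.2 and 45.9 CPM in Control replicates 2, 3, 5, 7 and 8. Apart from replicate 3, the PexRAP-AKO libraries lay within the Control range. The log2 fold change was 0.26 (SE 0.25, 95% interval -0.29 to 0.82, edgeR adjusted p = 0.651), and -0.036 without replicate 3. Its exons share 45 bases with Phrf1 on the opposite strand, and whether reads were counted by strand is not given.

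Isg15 (chromosome 4, 156199424 to 156200818, minus strand), the ubiquitin-like protein that is attached to other proteins during the response, stood at 3.08, 2.60, 11.1, 5.75 and 4.45 CPM in PexRAP-AKO libraries, against 3.57, 2.97, 3.87, 2.77 and 4.74 CPM in Control libraries. Replicate 3 was at 1.93 times the next highest library, and the other PexRAP-AKO libraries straddled the Control ones. The log2 fold change was 0.59 (SE 0.36, 95% interval -0.21 to 1.39, edgeR adjusted p = 0.470), and 0.14 without replicate 3. Usp18 (chromosome 6, 121245906 to 121270917, plus strand), the protease that strips ISG15 from its targets and also dampens signalling at the receptor, had the smallest spread of the 9. Usp18 stood at 11.98, 9.95, 16.7, 15.2 and 16.04 CPM in PexRAP-AKO libraries, against 11.5, 10.5, 14.1, 13.3 and 13.8 CPM in Control libraries. PexRAP-AKO replicates 3, 5 and 6 lay above all Control libraries, and PexRAP-AKO replicate 2 lay below them. The log2 fold change of Usp18 was 0.14 (SE 0.15, 95% interval -0.17 to 0.46, edgeR adjusted p = 0.678), and 0.07 without replicate 3. Usp18 exons share 124 bases with Gm44148, a noncoding RNA gene on the opposite strand.

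Mx1 (chromosome 16, 97447035 to 97462907, minus strand), a dynamin-like GTPase that blocks influenza viruses in mice with an intact allele, had the largest difference. As background, most inbred laboratory strains carry an Mx1 allele that lacks part of the coding sequence, so its mRNA is a marker of the response more than of a working protein. Mx1 stood at 4.94, 3.58, 21.2, 9.89 and 12.6 CPM in PexRAP-AKO libraries, against 4.34, 4.58, 4.82, 6.91 and 3.78 CPM in Control libraries. PexRAP-AKO replicates 3, 5 and 6 lay above all 5 Control libraries, replicate 1 lay within their range and replicate 2 lay below it. The log2 fold change was 1.10 (SE 0.43, 95% interval 0.14 to 2.06), with an unadjusted p of 0.0292 and an adjusted p of 0.265 by edgeR's quasi-likelihood test. The exact two-sided permutation p of log2 CPM was 0.119. Without replicate 3 the log2 fold change was 0.67 (edgeR adjusted p = 0.459).

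Ifit1 and Ifit3 lie in 1 cluster on chromosome 19 and encode tetratricopeptide proteins of a family that binds foreign RNA. Ifit1 (34640871 to 34650009, plus strand) stood at 9.15, 5.01, 22.8, 13.6 and 12.2 CPM in PexRAP-AKO libraries, against 10.1, 5.39, 9.29, 10.4 and 12.5 CPM in Control libraries. PexRAP-AKO replicates 3 and 5 lay above the Control libraries and replicate 2 below them. Its log2 fold change was 0.40 (SE 0.36, 95% interval -0.39 to 1.20, edgeR adjusted p = 0.630), and 0.07 without replicate 3. Ifit3 (34583531 to 34588731, plus strand) stood at 17.4, 16.9, 30.4, 25.2 and 21.4 CPM in PexRAP-AKO libraries, against 15.2, 14.6, 20.1, 17.6 and 19.3 CPM in Control libraries. PexRAP-AKO replicates 3, 5 and 6 exceeded every Control library, while replicates 1 and 2 lay inside the Control range. Ifit3 had a log2 fold change of 0.36 (SE 0.16, 95% interval -0.0036 to 0.72, edgeR unadjusted p = 0.0520, adjusted p = 0.328), and 0.22 without replicate 3. Of the 50-base stretches of Ifit3 transcripts, 51.2% also occur in its near-copy Ifit3b. The authors' counting could split or drop those reads, so the level of Ifit3 is uncertain. The share found in transcripts of any other gene was 7.13% for Ifit1, 4.37% for Mx1 and 3.96% for Isg15, and lower for the rest.

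Oasl2 (chromosome 5, 114896936 to 114912234, plus strand), of the oligoadenylate synthetase family, whose products activate the RNA-degrading enzyme RNase L, stood at 13.8, 13.8, 40.2, 23.5 and 14.6 CPM in PexRAP-AKO libraries, against 18.6, 12.4, 21.2, 17.8 and 23.4 CPM in Control libraries. Of the PexRAP-AKO libraries, 3 lay in the lower part of the Control range and replicate 5 lay just above its top. The log2 fold change was 0.18 (SE 0.32, 95% interval -0.52 to 0.88, edgeR adjusted p = 0.831), and -0.19 without replicate 3. Rsad2 (chromosome 12, 26442746 to 26456452, minus strand), or viperin, makes a nucleotide that ends viral RNA chains. Rsad2 stood at 16.9, 15.3, 35.8, 18.2 and 15.05 CPM in PexRAP-AKO libraries, against 14.8, 20.3, 22.95, 12.04 and 15.2 CPM in Control libraries. The 4 other PexRAP-AKO libraries were close together and all within the Control range. Its log2 fold change was 0.24 (SE 0.27, 95% interval -0.35 to 0.83, edgeR adjusted p = 0.717), and -0.070 without replicate 3. Ifi44 (chromosome 3, 151730922 to 151749960, minus strand), an interferon-induced protein, had the lowest level per length of the 9. Ifi44 stood at 2.995, 2.60, 8.67, 5.84 and 3.04 CPM in PexRAP-AKO libraries, against 3.40, 2.97, 3.06, 2.77 and 4.66 CPM in Control libraries. PexRAP-AKO replicates 3 and 5 lay above the Control libraries and the others lay among or below them. Its log2 fold change was 0.46 (SE 0.33, 95% interval -0.27 to 1.18, edgeR adjusted p = 0.545), and 0.095 without replicate 3.

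**Figure D2:**
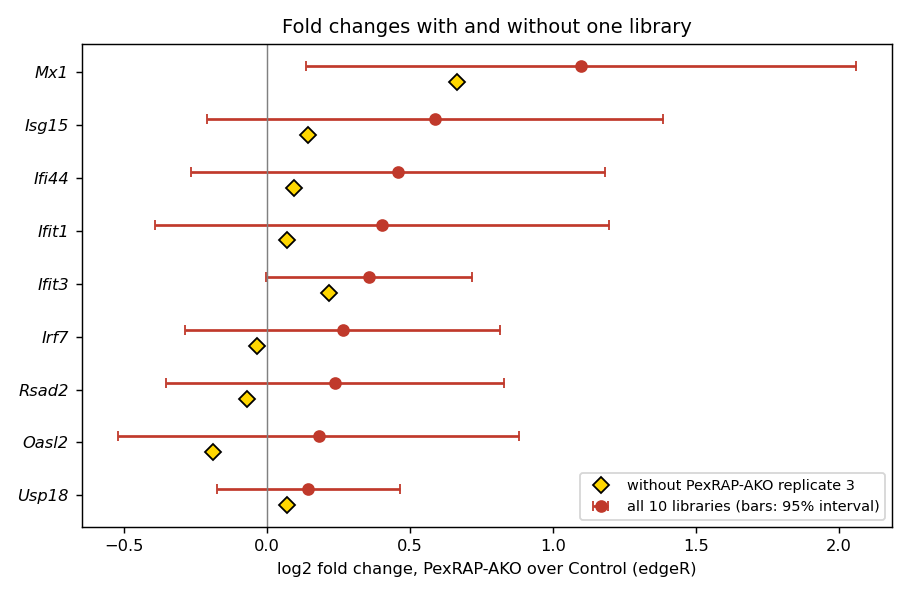
Log2 fold change of each gene, PexRAP-AKO over Control, from edgeR. Circles with bars are estimates from all 10 libraries with 95% intervals, and diamonds are estimates without PexRAP-AKO replicate 3. The interval lies above 0 for Mx1 (0.14 to 2.06) and includes 0 for the other 8, and the diamonds of Irf7, Oasl2 and Rsad2 lie below 0.

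Levels of different genes were compared per length (RPKM over merged GENCODE M21 exons). In PexRAP-AKO libraries the order was Irf7 (13.8 ± 5.99 RPKM), Ifit3 (12.8 ± 3.25), Isg15 (7.14 ± 4.53), Usp18 (5.01 ± 1.04), Ifit1 (4.72 ± 2.48), Rsad2 (4.68 ± 2.03), Oasl2 (3.32 ± 1.78), Mx1 (2.76 ± 1.86) and Ifi44 (0.755 ± 0.43; SD, n = 5). In Control libraries it was Irf7 (11.5 ± 1.89 RPKM), Ifit3 (9.95 ± 1.39), Isg15 (4.74 ± 1.04), Usp18 (4.53 ± 0.56), Rsad2 (3.93 ± 1.03), Ifit1 (3.59 ± 0.98), Oasl2 (2.93 ± 0.65), Mx1 (1.29 ± 0.32) and Ifi44 (0.550 ± 0.12; SD, n = 5). In Control, only the steps from Ifit3 to Isg15, from Oasl2 to Mx1 and from Mx1 to Ifi44 exceeded the sum of the neighbours' SDs. In PexRAP-AKO the spread was wider, and of the neighbouring steps none exceeded that sum. The Irf7 value divides by 3776 bases, because retained-intron transcripts make its merged exon the whole gene, so its level per spliced base is understated.

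The genes had a wider spread among PexRAP-AKO than among Control libraries, a difference that was not tested. The SD of log2 CPM was larger in PexRAP-AKO for all 9, and for 7 of the 9 when replicate 3 was left out. For Mx1 it was 1.02 in PexRAP-AKO and 0.32 in Control, and for Rsad2 it was 0.52 in PexRAP-AKO and 0.37 in Control, where the median gene had 0.18 in PexRAP-AKO and 0.16 in Control. Without replicate 3 the SD of Rsad2 in PexRAP-AKO was 0.13 and that of Mx1 was still 0.83. The genes also ordered the libraries alike. On a scale from 1 (lowest of 10) to 10 (highest), the mean rank over the 9 genes was 10 in PexRAP-AKO replicate 3, 8.11 in replicate 5, 6.67 in replicate 6, 4.11 in replicate 1 and 2 in replicate 2. In Control it was 6.44 in replicate 5, 6.22 in replicate 8, 4.67 in replicate 7, 4 in replicate 2 and 2.78 in replicate 3. The top 3 and the bottom library were thus all PexRAP-AKO. Over the 10 libraries, each gene's Pearson correlation with the mean of the other 8 ran from 0.63 for Rsad2 to 0.96 for Isg15, as a description of libraries that share depth and tissue makeup. Without replicate 3 the correlation of Rsad2 was -0.02 and that of Usp18 was 0.91.

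PexRAP-AKO replicate 3 was the highest library for all 9 genes, where it was the highest for 14.7% of all genes tested. It was also the lowest library for 17.0% of all genes tested, and for 0 of the 9. Against the median of the other 4 PexRAP-AKO libraries, its levels were 2.95-fold for Isg15, 2.88-fold for Ifi44, 2.86-fold for Mx1 and 2.83-fold for Oasl2. The ratios were smaller for Rsad2 (2.22-fold), Irf7 (2.17-fold), Ifit1 (2.13-fold), Ifit3 (1.57-fold) and Usp18 (1.23-fold). At least 1.5-fold was reached by 8 of the 9 genes, against 7.52% of all genes, whose median ratio was 0.992. Dhrs7b itself was not apart in this library, at 18.03 CPM against a median of 20.4 CPM in the other PexRAP-AKO libraries and 85.9 CPM in Control libraries. The lowest library was PexRAP-AKO replicate 2 for 5 genes, Control replicate 3 for 3 and Control replicate 7 for 1.

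**Figure D3:**
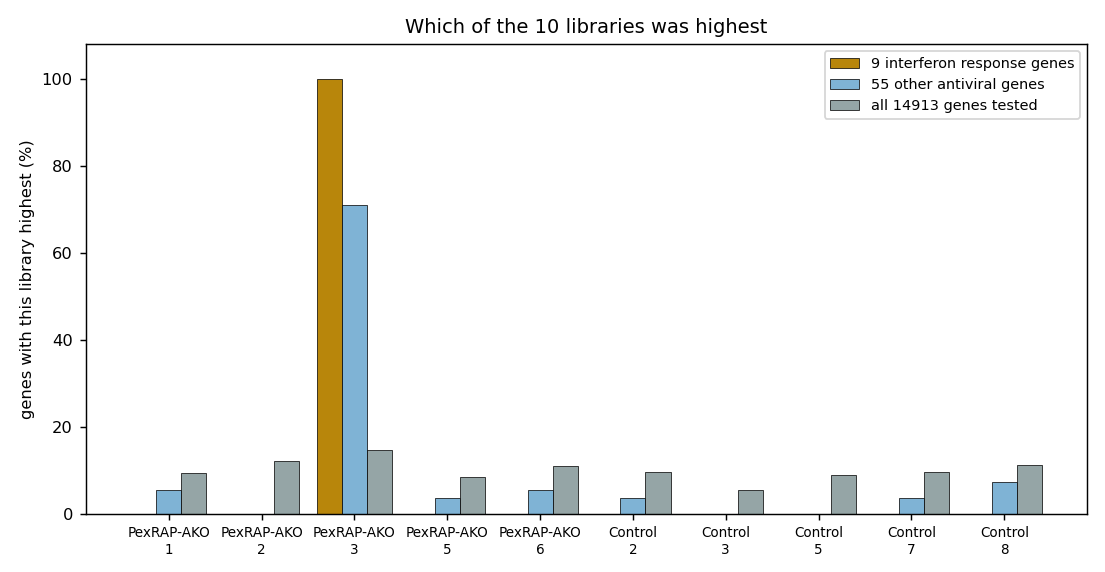
Share of genes (%, axis from 0) for which each library had the highest CPM of the 10, for the 9 interferon response genes, 55 other antiviral genes and all 14913 genes tested. PexRAP-AKO replicate 3 was highest for 100% of the 9 genes and 70.9% of the other antiviral genes, against 14.7% of all genes.

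The wider pathway was read from lists. Of 55 other antiviral interferon-induced genes tested (57 listed), 48 had positive and 7 negative log2 fold changes, with a median of 0.12. EdgeR called 0 of the 55, with 3 higher and 1 lower at an unadjusted p under 0.05, a lower share than the 15.5% of all genes. Limma voom called 0. DESeq2, with 414 calls (3.78% of the genes with an adjusted p), called 1, Ifi27 (DESeq2 adjusted p = 0.0430), and gave no adjusted p for 8 of the 55, Ms4a4c among them. Ifi27, a mitochondrial interferon-induced protein, stood at 513.5 ± 49.5 CPM in PexRAP-AKO and 400.4 ± 62.0 CPM in Control libraries (SD, n = 5 each, edgeR log2 fold change 0.36, adjusted p = 0.182). Ms4a4c had the largest log2 fold change of the list (1.96, edgeR adjusted p = 0.300), at 0.57, 0.91, 17.0, 4.49 and 7.70 CPM in PexRAP-AKO libraries, against 1.28, 0.55, 2.16, 1.38 and 2.57 CPM in Control libraries. Its 3 highest libraries were again PexRAP-AKO replicates 3, 6 and 5. Tmem140, a membrane protein, had a log2 fold change of -0.47 (edgeR adjusted p = 0.207). Pnpt1 (0.17), a mitochondrial RNA exonuclease, Slfn8 (0.43), of the Schlafen family, and Trim30d (0.31), of the tripartite motif family, did not pass either. Without replicate 3, 32 of the 55 were positive and 23 negative, with a median of 0.012. Replicate 3 was highest for 39 of the 55, and reached 1.5-fold over the other PexRAP-AKO libraries for 23.

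Interferon genes themselves had almost no counts. Of 18 type I interferon genes in the table, 5 had any count and 1 passed the filter, Ifnk, an epithelial interferon (log2 fold change -0.40, edgeR adjusted p = 0.645). Ifnb1, Ifna4 and Ifna11 had 1 count each over all 10 libraries. Of the receptor and signalling genes, 6 are described here. Their log2 fold changes were -0.02 for Ifnar1 and 0.06 for Ifnar2, the receptor chains, 0.06 for Jak1 and 0.05 for Tyk2, the kinases, and 0.07 for Stat2 and 0.10 for Irf9, of the transcription complex. By edgeR, DESeq2 and limma voom 0 of the 6 were called, and 0 of the 6 had an unadjusted p under 0.05 in each (lowest edgeR adjusted p = 0.688). Replicate 3 was highest for 4 of the 6. The largest ratio to the median of the other PexRAP-AKO libraries among these was that of Stat2, at 1.4999 and so just short of the limit of 1.5 used here. When replicate 3 was left out, the log2 fold change of Stat2 was -0.087, and those of the other 5 lay between -0.02 for Ifnar1 and 0.05 for Tyk2.

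Among 16 sensor genes tested, 13 had positive log2 fold changes (median 0.15), 0 were called by edgeR, DESeq2 or limma voom, and 4 were higher at an unadjusted edgeR p under 0.05, against 15.5% of all genes in either direction. These were Dhx58 (0.44) and Ddx58 (0.18), of the RIG-I family of RNA sensors, and Traf3 (0.18) and Ikbke (0.40), which relay their signal, with edgeR adjusted p-values of 0.266, 0.303, 0.310 and 0.315. Tmem173, the adaptor STING, was at 0.22 and Tlr9, a receptor for microbial DNA, at 0.49. The median of the sensors without replicate 3 was 0.04, 11 were positive and 1, Traf3, had an unadjusted p under 0.05, while Tlr9 was at 0.23. Among 11 negative regulators, 8 were positive (median 0.03). Ptpn2, a phosphatase that removes phosphate from JAK and STAT proteins, had 0.39 (edgeR adjusted p = 0.185) and was the 1 with an unadjusted p under 0.05. Ptpn6 (0.51), another phosphatase, Tnfaip3 (0.20) and Otud1 (-0.06), which edit ubiquitin chains, Rnaseh2b (0.11), of the enzyme that removes RNA from DNA, and Socs3 (-0.23), an inhibitor of cytokine receptors, did not pass. All 3 tools called 0 of the 11, with no DESeq2 adjusted p for 1 of them. Their median without replicate 3 was 0.013, with 6 positive and 5 negative.

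Genes that interferon gamma is the main known inducer of gave 18 positive and 6 negative log2 fold changes over 24 tested (median 0.04). The 3 tools called 0 of them, with no DESeq2 adjusted p for 2, and fewer than the 15.5% of all genes had an unadjusted edgeR p under 0.05, with 1 higher (Gbp8, a guanylate-binding protein, 1.13) and 1 lower (Cxcl11, a chemokine for T cells, -0.41). Cxcl10 (-0.18), a chemokine of the same receptor, Ciita (0.27), the activator of MHC class II genes, Ifngr1 (-0.13), a chain of the interferon gamma receptor, and Irf8 (0.28), a transcription factor of myeloid cells, did not pass. Without replicate 3, 4 of the 24 were positive and 20 negative (median -0.07). That count leaves in Control replicate 2, which was the highest library for 11 of the 24, against 9.67% of all genes. PexRAP-AKO replicate 3 was the highest for 10 of the 24, against 14.7% of all genes. Antigen processing genes, which both interferons can induce, had a median of 0.15 over 10 tested, 8 positive. EdgeR and limma voom called 0, with 3 at an unadjusted edgeR p under 0.05 (15.5% of all genes), and DESeq2, which called 3.78% of the genes with an adjusted p, called 2, Psme1 and Psme2. Leaving replicate 3 out gave a median of 0.083, 7 were positive and 2 had an unadjusted edgeR p under 0.05. Psme2, a subunit of the proteasome activator PA28, stood at 40.7, 48.4, 42.3, 46.0 and 43.5 CPM in PexRAP-AKO libraries, against 35.6, 39.2, 34.8, 31.2 and 30.7 CPM in Control libraries. The groups did not overlap for Psme2, as for 3.41% of all genes, and replicate 3 was not its highest library. Its log2 fold change was 0.36 (edgeR adjusted p = 0.0972), and 0.38 without replicate 3. Psme1, its partner, had 0.25 (edgeR adjusted p = 0.123), and Psmb10 (0.21), Psmb8 (0.22) and Psmb9 (0.16), subunits of the immunoproteasome, and Tap1 (0.15), a peptide transporter, did not pass.

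Close relatives of the 9 genes were read separately, since near-identical copies can share reads. Of them, 5 were tested, and all 5 had positive log2 fold changes: Mx2 (0.26), Ifit1bl1 (1.05), Ifit2 (0.29), Ifit3b (0.34) and Oasl1 (0.53). The median of the 5 was 0.17 without replicate 3, against 0.34 with it, with Oasl1 at -0.024, Ifit2 at 0.02 and Ifit3b at 0.32. EdgeR, DESeq2 and limma voom called 0, with 1, Ifit3b, at an unadjusted edgeR p under 0.05 (adjusted p = 0.244), though DESeq2 gave no adjusted p for 2. Ifit3b differs from Ifit3 in which library was highest. It stood at 6.72, 7.02, 7.46, 8.27 and 5.51 CPM in PexRAP-AKO libraries, against 5.02, 5.14, 5.12, 6.51 and 5.78 CPM in Control libraries, highest in PexRAP-AKO replicate 5. Ifit1bl2, with 81 counts in all, and Ifi44l, with 1, were too low to test.

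The genes most like the 9 were sought among tested genes, with predicted and pseudogene names (Gm, Rik and -ps) left out. Genes were ranked by Pearson correlation over the 10 libraries with the mean standardised log2 CPM of the 9, as a description. The most alike were Oasl1 (0.97), Sppl2a (0.97), Oas3 (0.96), Dmxl1 (0.96), Xaf1 (0.96), Gmfg (0.95), Ddx60 (0.95) and Siglec1 (0.95). Of these, Oas3, Xaf1 and Ddx60, a helicase, are on the list of other antiviral genes, and Oasl1 is a close relative of Oasl2. Sppl2a is an intramembrane protease and Gmfg an actin regulator of blood cells. Spearman's rho ran from 0.85 for Ddx60 to 0.98 for Oas3. Without replicate 3 the correlations ran from 0.85 for Ddx60 to 0.96 for Gmfg. Oas3, an oligoadenylate synthetase, stood at 2.02, 1.63, 18.9, 6.56 and 7.35 CPM in PexRAP-AKO libraries, against 2.98, 1.76, 4.77, 3.66 and 4.10 CPM in Control libraries. Siglec1, a sialic acid receptor of macrophages, stood at 71.8, 66.2, 185.4, 107.7 and 96.7 CPM in PexRAP-AKO libraries, against 74.4, 71.7, 119.8, 88.3 and 87.2 CPM in Control libraries. Both were highest in PexRAP-AKO replicate 3, and Siglec1 was next highest in Control replicate 5. Dmxl1, a partner of the vacuolar proton pump, spanned 143.4 to 177.4 CPM over the 10 libraries, a far narrower range.

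Markers of macrophages, monocytes and NK cells peaked in PexRAP-AKO replicate 3, but not those of every immune cell. Conventional dendritic cell markers summed there to 57.8 CPM, the lowest of the 10 libraries, against 60.4 to 75.7 CPM in Control libraries. Most of that sum is 1 marker, Zbtb46, at 32.9 CPM in replicate 3 and 36.8 to 50.1 CPM in the other 9 libraries. Replicate 3 was highest for 0 of the 6 conventional dendritic cell markers, while the mean log2 CPM of the 6 (2.69) ranked 4 of 10. Macrophage markers summed to 695 to 1827 CPM in PexRAP-AKO and 829 to 1514 CPM in Control libraries, with replicate 3 at 1827 CPM and highest for 8 of 11 markers. Monocyte markers summed to 336 to 884 CPM in PexRAP-AKO and 375 to 653 CPM in Control libraries, with replicate 3 at 884 CPM and highest for 5 of 5 tested. NK cell markers summed to 8.34 to 35.5 CPM in PexRAP-AKO and 7.40 to 17.3 CPM in Control libraries, with replicate 3 at 35.5 CPM and highest for 6 of 6 tested. Control replicate 5, the second highest for macrophage markers, had the highest mean rank over the 9 genes among Control libraries (6.44). It also had the highest Control levels of Ifit3, Rsad2 and Usp18. Control replicate 8, at a mean rank of 6.22, had the highest Control levels of Ifit1, Isg15, Oasl2 and Ifi44. PexRAP-AKO replicate 6 had the lowest macrophage markers of the 10 libraries (695 CPM), yet its mean rank over the 9 genes was 6.67, above every Control library. The sum of brown adipocyte markers was also highest in replicate 3 (2916 CPM, with Ucp1 at 1603 CPM), though replicate 3 was highest for 3 of the 9 markers and their mean log2 CPM was highest in PexRAP-AKO replicate 5 (7.31, against 7.24 in replicate 3). Endothelial markers were the lowest of the 10 in replicate 3 (633 CPM, against 887 to 1068 CPM in Control libraries), and so were adipocyte markers (33144 CPM, against 34039 to 44990 CPM in Control libraries).

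Plasmacytoid dendritic cells, known as strong producers of interferon alpha, had markers that summed to 180.6 to 224.0 CPM in PexRAP-AKO and 187.5 to 230.4 CPM in Control libraries, and replicate 3 was highest for 1 of 7 tested. Most of that sum is Tcf4 (154.9 to 198.6 CPM), which other cells also express. The mean log2 CPM of the 7 ran from 1.53 to 3.80 in PexRAP-AKO and from 1.45 to 2.92 in Control libraries, highest in PexRAP-AKO replicate 6, with replicate 3 at 2.60. Spib, a transcription factor of these cells and of B cells, stood at 11.7 CPM in PexRAP-AKO replicate 6 and at 0.24 to 5.38 CPM in the other 9 libraries. Siglech, a surface receptor of these cells, stood at 3.40, 2.02, 3.80, 2.79 and 7.91 CPM in PexRAP-AKO libraries, against 2.72, 2.47, 3.52, 2.28 and 4.90 CPM in Control libraries. It was highest in PexRAP-AKO replicate 6 and next highest in Control replicate 8. T cell markers summed to 18.1 to 173.1 CPM in PexRAP-AKO and 13.2 to 25.2 CPM in Control libraries, and B cell markers to 8.26 to 123.6 CPM in PexRAP-AKO and 5.94 to 63.5 CPM in Control libraries. Both peaked in replicate 6, and replicate 3 was highest for 0 of 11 T cell and 0 of 7 B cell markers tested. Among the listed markers, Ly6g of neutrophils and Ccl21a of lymph node stroma had 0 counts in every library. The part of these cell types in the levels of the 9 genes was not tested.

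**Figure D4:**
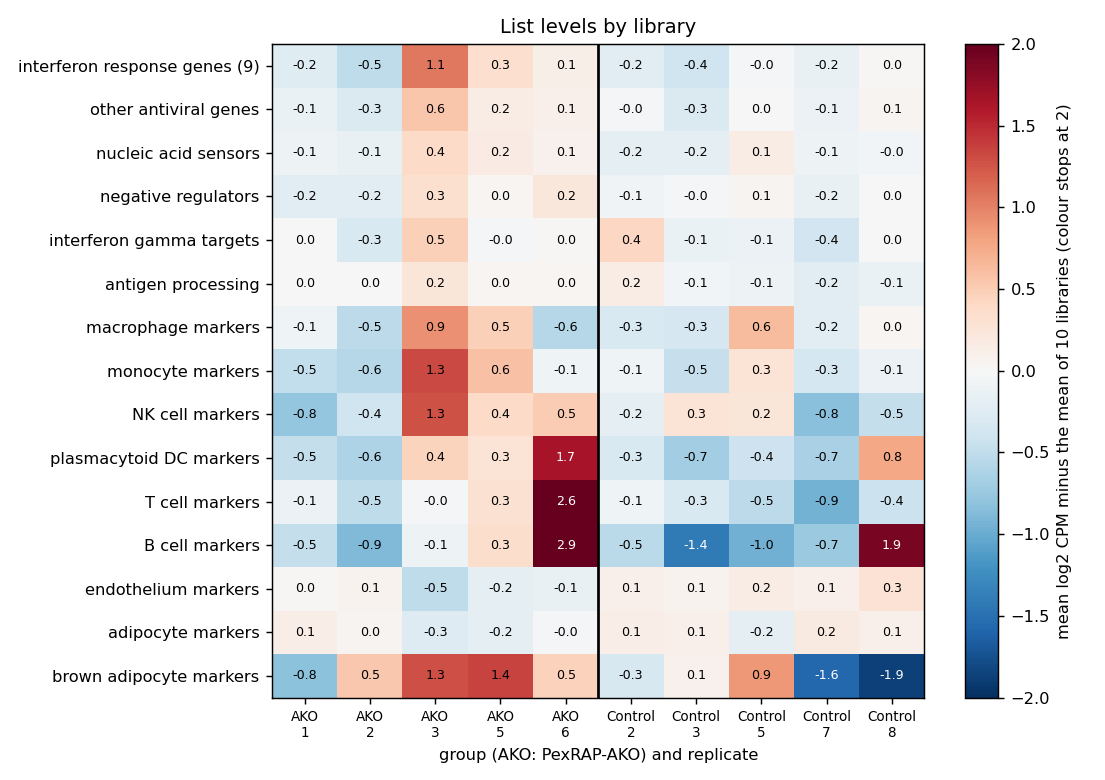
Mean log2 CPM of each gene or marker list in each library, minus the list's mean over the 10 libraries, PexRAP-AKO left of the line and Control right. Red is above and blue below the mean, and the colour stops at 2. The row of the 9 genes is highest in PexRAP-AKO replicate 3, as are those of macrophage, monocyte and NK cell markers, while T cell and B cell markers are highest in replicate 6.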

How the data were processed

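Unnormalized counts of reads by gene were deposited for 10 libraries. The tools named in the submitters' processing notes are STAR 2.0.4b, Subread, featureCounts and edgeR, and the sources used here give no build, annotation or strand setting. Among 40724 rows, 117 identifiers occurred more than once, always with the same counts, and were used once. Columns were assigned to samples by the genotype and replicate number in their names. TMM scaling and filterByExpr (at least 10 counts, total of at least 15) in edgeR 4.0.16 (R 4.3.3) kept 14913 genes. These were tested by the robust quasi-likelihood F test with no covariate, Benjamini-Hochberg adjustment over all genes tested and a threshold of 0.05. Each SE came from the F statistic. A prior count of 2 was added for log2 CPM. Permutation tests were exact and two-sided over 252 splits, so the smallest p is 0.00794. The script was tested on simulated data.

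Coordinates and exon lengths came from GENCODE M21 (GRCm38) and promoters from RefSeq (GRCm38.p6). DESeq2 1.42.0, limma 3.58.1, other scalings and filters, a replicate block and leaving out libraries were alternatives. Replicates 2, 3 and 5 exist in both groups. Their deviations correlated at -0.02, -0.08 and 0.36, and the labels state no link, so they were not treated as pairs. The lowest chi-square per degree of freedom between replicates was 5.30, so each library was kept. The 9 genes, the lists and the separate treatment of PexRAP-AKO replicate 3 were chosen with earlier results of these data known. Named genes were the 9, Dhrs7b, their close copies, the receptor and signalling genes (a gene that the rule names is not reported here), up to 6 genes of each other list by smallest edgeR p and the 8 most alike in pattern. Siglech, Spib, Tcf4, Zbtb46, Ucp1, Ly6g and Ccl21a are markers named after their values were seen.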

Additional observations from a re-analysis of the deposited data

Results flagged for a closer look

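In 60 groups of 5 libraries, the 9 genes and 21 lists in each genotype, the highest or lowest library was compared with the others by Dixon's ratio. Its critical value of 0.71 was passed by 9 groups, where chance gives about 3 if groups are independent. They are not, since they share libraries and the 9 genes also form a list, so the count does not measure an excess over chance. Of the 9 interferon response genes, Rsad2 was the 1 that passed. It stood at 5.17 log2 CPM in PexRAP-AKO replicate 3, and the other PexRAP-AKO libraries lay at 3.92 to 4.20. Antigen processing genes had a mean of 6.72 log2 CPM in PexRAP-AKO replicate 3, against 6.50 to 6.52 in the other PexRAP-AKO libraries.

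The other values are mean log2 CPM of marker lists. In PexRAP-AKO replicate 6, T cell markers stood at 3.68, lymph node stroma markers at 3.78 and skin and mammary epithelium markers, with 1 gene tested, at 3.41. In PexRAP-AKO replicate 2, skeletal muscle markers were low, at 0.073. In Control replicate 8, B cell markers stood at 2.88 and plasmacytoid dendritic cell markers at 2.92. In Control replicate 5, adipocyte markers were low, at 10.79.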

How the results depend on the processing

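None of the 9 genes passed the adjusted threshold in any of 20 alternatives each (lowest adjusted p 0.0865, Mx1 in DESeq2, highest 0.972, Ifit1), and DESeq2 gave none for Isg15 and Ifi44. Leaving out 1 library moved the median log2 fold change of the 9 between 0.07 and 0.44, and the fold changes of Irf7 between -0.036 and 0.38, of Oasl2 between -0.19 and 0.30 and of Rsad2 between -0.070 and 0.37, with the lowest value in each without PexRAP-AKO replicate 3. Without PexRAP-AKO replicates 3 and 6 together, Ifit1 (-0.048), Irf7 (-0.13), Oasl2 (-0.13), Rsad2 (-0.030) and Usp18 (-0.035) were negative, with a median of -0.03. The cause was not tested. With library totals alone, the median of all genes was -0.073 and that of the 9 was 0.29.

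The count of all genes called, 15 (14 higher, 1 lower), was 26 without the low-count filter (22 higher, 4 lower), 414 with DESeq2 (305 higher, 109 lower), 107 with voom sample weights (88 higher, 19 lower), and 2 without PexRAP-AKO replicates 3 and 6. With the replicate block, which keeps the 6 libraries of shared number, it was 3 and the median of the 9 was 0.51. It ran from 3, when Control replicate 8 was left out, to 58, when PexRAP-AKO replicate 1 was. Of the other antiviral genes, DESeq2 called 1 where edgeR called 0. Depth limits Isg15 and Ifi44 most, with as few as 34 counts in a library.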
